A study of Drosophila melanogaster with 3 samples.

Results

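Castor (cas), seven-up (svp) and grainyhead (grh) are transcription factors whose timed use in fly neural stem cells helps decide which neurons are born when. They were taken by symbol, as 3 of the 13988 features counted in single cells of the Drosophila melanogaster larval brain, and were followed from neuroblasts to neurons. The study compared 3 genotypes with 1 library each: control, the library labelled mud and the nanobody library. Per the labels the larvae were 72 to 96 h past egg laying and kept at 25 degrees C, the libraries were of batch 1, and the cells were neuroblasts and neurons of the brain. The series' design text adds that lineages of type 1 neuroblasts were sorted by FACS, and its title asks how the size of sibling cells bears on cell cycle and fate. Sqh::GFP on X (a GFP fusion of the myosin light chain) and, on chromosome 3, worGal4 and UAS-mCherry::Jupiter (a marker of microtubules) were common to control, mud and nanobody. To these the mud library added mud4 on X. The nanobody library added UAS-ALDInscuteable RockKinase domain-VhhGFP4-HA, a transgene on chromosome 3 under the control of worGal4, which is active in neuroblasts. How many larvae were pooled for a library is not given in the sources used here.

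Neuroblasts are stem cells that divide into another neuroblast and a ganglion mother cell (GMC), which gives rise to neurons or glia. In embryonic neuroblasts a series of factors follow one another, ending with cas, a zinc-finger protein, and then grh, a factor of the CP2 family. The gene svp encodes an orphan nuclear receptor of the COUP-TF type that closes early temporal windows and acts as a switch again in larval neuroblasts. Larval neuroblasts express grh, which is needed for their continued division and, together with abd-A, for the death of abdominal neuroblasts. In the intermediate progenitors of type II lineages grh follows D and precedes ey.

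In BDGP6.54, cas (FBgn0004878) lies on chromosome arm 3R from 5712975 to 5716805 on the minus strand, with 2 annotated transcripts and no overlapping gene. The gene svp (FBgn0003651) lies on 3R from 12258737 to 12302785 on the plus strand with 5 transcripts. It overlaps 7 genes of the same strand, of which 4 were counted features, so the assignment of its reads is uncertain to that extent. The gene grh (FBgn0259211) lies on 2R from 17801132 to 17842820 on the plus strand with 8 transcripts and overlaps 2 antisense genes, neither of them a counted feature. The build that the files used is not given in the sources used here.

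The libraries held 14415 to 15194 called cells with a median of 6176 to 6863 UMIs (unique transcript counts) per cell. Cells were gated by transcripts: at least 1 dpn UMI (neuroblast marker, 457 control, 862 mud and 854 nanobody cells), at least 2 ase UMIs without dpn (GMC marker, 3938, 3748 and 3362 cells), at least 3 Hey UMIs (newborn neurons, 1607, 1389 and 1397 cells) and at least 1 nSyb UMI (neurons, 5004, 5724 and 5218 cells). The dpn gate was rich in neuroblast transcripts such as mira, at 693 to 816 CPM (UMIs of a gene scaled to a common total of all UMIs of the gate), against 101 to 171 in the ase gate. Not every dpn cell need be a neuroblast. A single dpn UMI was held by 40.9%, 46.1% and 37.9% of the gate in control, mud and nanobody, and under 3 mira UMIs by 31.1%, 31.4% and 35.8%. The neuron marker elav stood at 820, 609 and 898 CPM in dpn cells. The 4 gates overlapped: 8.53% to 9.75% of gated cells met more than 1. The overlap was largest for the Hey gate, where 30.3%, 31.9% and 33.1% of cells also met the ase gate in control, mud and nanobody. Only 62.3%, 56.9% and 58.2% of Hey cells met no other gate. Libraries shared 59 to 78 cell barcodes by pair. The mud transcript was at 111 CPM in control, 139 in the mud library and 110 in the nanobody library, and this level cannot check for mud4. With 1 library per genotype no test was made, and intervals are 95% counting intervals only.

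Each factor had its own place along the path from stem cell to neuron. The level of cas was highest in the ase gate and grh was highest in the progenitor gates. Of the 4 gates, the nSyb gate held the lowest level of cas and of grh in 3 of 3 libraries. The highest svp level was in the nSyb gate in control and mud and in the ase gate in nanobody, and the dpn gate held the lowest in 3 of 3 libraries.

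In the ase gate cas stood at 839 CPM in control (interval 829 to 849), 571 in the mud library (562 to 579) and 585 in the nanobody library (577 to 594). The dpn gate held 197, 138 and 151 CPM of cas, respectively. The ase gate was thus 4.27-fold above the dpn gate in control, 4.15-fold in mud and 3.88-fold in nanobody. A change of at least 2-fold on log2(CPM + 5) in all 3 libraries is termed a call, and 1.27% of 4477 genes were called higher and 3.91% lower in the ase gate than in the dpn gate. Hey cells held 287 CPM of cas in control, 188 in mud and 225 in nanobody, between the ase and dpn levels in 3 of 3 libraries. A part of these Hey cells also met the ase gate, so the level is not that of newborn neurons alone. Against dpn cells without scro the median log2 ratio of the Hey gate turned from 0.53 to -0.14.

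In nSyb cells cas fell to 68.8, 59.8 and 43.6 CPM in control, mud and nanobody, which was called lower than in the dpn gate, as were 10.8% of 5112 genes. Cells that met the nSyb gate and no other held 21.1, 20.3 and 14.5 CPM, so much of the cas in nSyb cells sat in cells that also met a progenitor or newborn gate. Glia (at least 2 repo UMIs, no dpn or nSyb; 77, 90 and 51 cells), which should lack cas, held 42.6, 38.8 and 46.7 CPM. A cas UMI was present in 20.8%, 16.7% and 17.6% of glia and in 15.0%, 14.7% and 11.9% of nSyb cells. Median depth was 9620, 9496 and 10111 UMIs in glia and 7946.5, 7678 and 8760.5 in nSyb cells. The nSyb share was therefore at the level of background, and it is not read as expression. Barcodes of 20 to 200 UMIs, which hold mainly free RNA, carried 731, 592 and 454 CPM of cas.

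**Figure D1:**
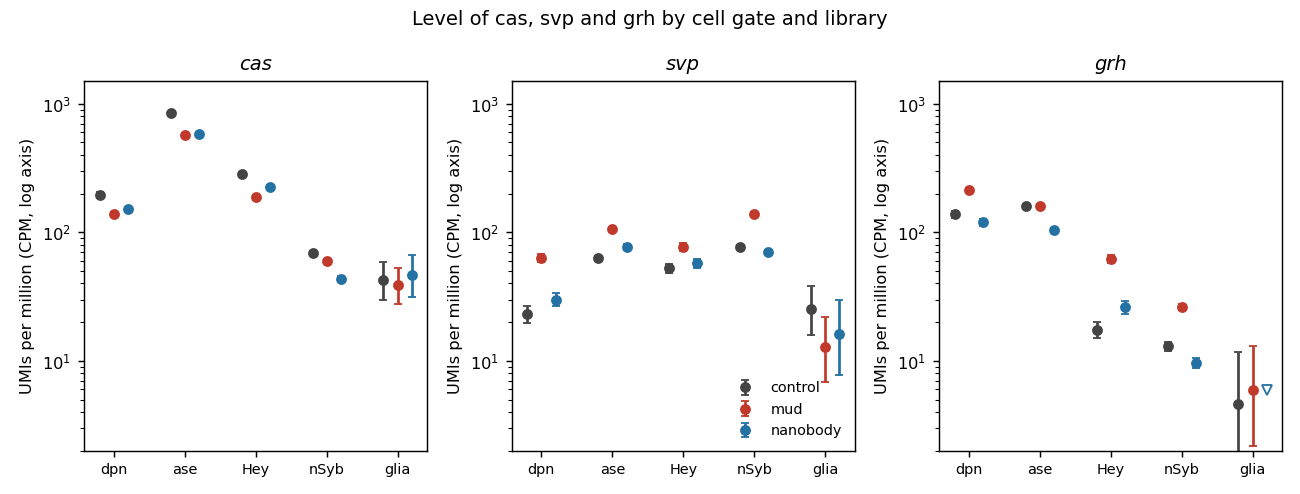
Level of cas, svp and grh in CPM (log axis) in the 4 cell gates and in glia, 1 point per library with its 95% Poisson interval; the open triangle is the upper bound where no UMI was counted. Most cas lies in the ase gate, at 839, 571 and 585 CPM, svp is lowest in the dpn gate among the 4 gates, and grh is high in the dpn and ase gates and low in nSyb cells.

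For svp the nSyb gate held more than the dpn gate. The nSyb gate held 77.0 CPM in control, 139.5 in the mud library and 70.4 in the nanobody library, and the dpn gate held 23.0, 63.1 and 29.9. The nSyb gate was 3.35-fold, 2.21-fold and 2.35-fold above the dpn gate, a call that 17.5% of genes shared. The ase gate held 62.7, 106.0 and 77.4 CPM of svp, and the Hey gate 52.3, 77.3 and 57.6. In nanobody the ase interval (74.3 to 80.5) lay above the nSyb interval (68.1 to 72.8). These intervals leave out the spread between cells, so they do not settle the order of the 2 gates. Neither gate was called against the dpn gate for svp. The ratio fell short in mud for the ase gate (1.68) and in mud and nanobody for the Hey gate (1.22 and 1.92). Restricting the nSyb cells to those in no other gate left svp at 78.6, 146 and 69.9 CPM, in contrast to the drop in cas. Glia held 25.3, 12.9 and 16.1 CPM of svp, near the dpn level of control, so svp in control dpn cells was not separated from background by its level. Low-UMI barcodes held 99.1, 237 and 117 CPM.

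The level of grh was above that of Hey and nSyb cells in both progenitor gates. It stood at 138 CPM in control, 213 in mud and 119 in nanobody dpn cells, and at 161, 160 and 104 in ase cells. The ase gate was above the dpn gate in control (1.16-fold) and below it in mud (0.751-fold) and nanobody (0.875-fold), so the 2 gates have no common order. The median over libraries was -0.18 on log2(CPM + 5), and -0.98 when dpn cells with scro were left out. Hey cells held 17.3, 62.2 and 26.0 CPM and nSyb cells held 13.0, 26.2 and 9.66 CPM. Both were called lower than the dpn gate, as were 7.72% of 4653 genes for Hey, with 5.05% called higher. In cells of the nSyb gate alone grh was at 2.23, 6.79 and 2.88 CPM, which was 0.0158, 0.0292 and 0.0223 of its level in cells of the dpn gate alone. Glia held 4.60 and 5.97 CPM in control and mud and no grh UMI in 51 nanobody cells, which allows a share of up to 5.88% (3 counts of 51). Low-UMI barcodes held 87.4, 215 and 76.6 CPM of grh.

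How many cells carried a transcript, and how many copies, also separated the factors. Before thinning, a cas UMI was found in 74.2%, 65.6% and 62.2% of ase cells of control, mud and nanobody. After each cell was thinned to 1000 UMIs the shares were 41.0%, 32.9% and 30.4%, against 3.90%, 4.44% and 3.92% in glia. In ase cells with cas the median was 7, 5 and 5 UMIs, and 30.2%, 19.6% and 21.3% of the gate held 10 or more. In that gate cas was both widespread and present at several copies per cell.

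A grh UMI was found in 27.8%, 32.5% and 19.1% of dpn cells, or 10.9%, 16.2% and 6.91% after thinning, against 1.30%, 2.22% and 0% of glia. Its copy number was higher in dpn than in ase cells with the transcript: the mean was 7.47, 9.34 and 7.60 UMIs per positive dpn cell and 3.74, 3.63 and 3.54 per positive ase cell. The share of positive ase cells was 38.3%, 37.8% and 27.7%, and after thinning 12.1%, 12.7% and 8.06%. The dpn cells were deeper, with medians of 12024, 9885.5 and 9196 UMIs against 8436.5, 7343 and 8585 in ase cells, which bears on the unthinned shares and copies. At 1000 UMIs the intervals of both gates overlapped in control and nanobody, and in mud the dpn share (13.8% to 18.9%) lay just above the ase share (11.7% to 13.8%).

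A minority of cells carried svp. It was detected in 12.9%, 18.1% and 11.6% of dpn cells and in 13.0%, 17.3% and 11.9% of nSyb cells, or 3.06%, 5.34% and 2.46% and 5.26%, 8.60% and 4.73% after thinning. Thinned glia gave 1.30%, 2.22% and 0%. In ase cells the richest 10% of positive cells held 53.5%, 56.6% and 51.1% of all svp UMIs, and the median positive cell held 1 UMI. In nSyb cells the median positive cell held 4, 6 and 4 UMIs, so nSyb cells with svp typically carried several copies and ase cells with svp 1.

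**Figure D2:**
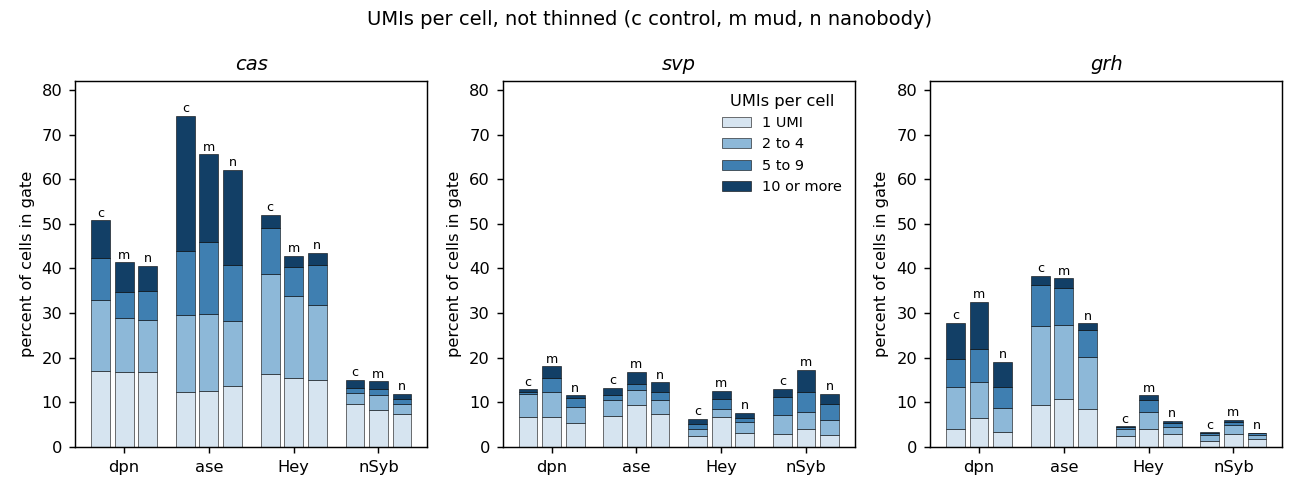
Share of cells in each gate by number of cas, svp or grh UMIs, without thinning, for control (c), mud (m) and nanobody (n). Cells with 10 or more cas UMIs make up 30.2%, 19.6% and 21.3% of the ase gate, whereas svp and grh are found in a minority of cells in every gate.

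Cells were then split by tsh, a homeotic gene active in the nerve cord and not in most of the central brain. A tsh UMI was present in 43, 110 and 89 dpn cells of control, mud and nanobody. A cell with no tsh UMI may still express it. The 3 factors differed in how they followed this split.

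In dpn cells with tsh, svp stood at 86.6 CPM in control, 120.5 in mud and 67.0 in nanobody, against 17.4, 50.9 and 22.8 in dpn cells without it. It was 4.97-fold higher in control (interval 3.46 to 7.04), 2.37-fold in mud (2.03 to 2.75) and 2.93-fold in nanobody (2.31 to 3.72). This was a call, as for 1.46% of 4521 genes. In ase cells the order was turned: svp was at 24.6, 84.1 and 30.2 CPM with tsh and at 79.4, 113 and 94.0 without. The ratio was 0.310 in control, 0.743 in mud and 0.321 in nanobody. It was not a call, since mud fell short of 2-fold. In nSyb cells svp was again higher with tsh, by 1.45-fold, 1.53-fold and 1.49-fold. Apart from svp in dpn cells no factor was called in the tsh split. The background was 0.0442% lower in dpn cells, 0.797% higher and 0.821% lower in ase cells, 0.817% and 0.77% in Hey cells and 1.1% and 0.725% in nSyb cells.

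The level of grh in dpn cells was 188, 386 and 224 CPM with tsh and 134, 176 and 99.0 without, which was 1.40-fold, 2.19-fold and 2.26-fold higher. In Hey cells it was lower with tsh in 3 of 3 libraries, at 15.1, 30.6 and 16.7 against 18.1, 71.7 and 28.8 CPM, although the control interval of the ratio, 0.579 to 1.19, spanned 1. For cas, tsh cells held more in the ase gate (1.24-fold, 1.31-fold and 1.49-fold) and in the Hey gate (1.70-fold, 1.87-fold and 2.15-fold). In dpn cells the cas ratio was 1.71 in control, 0.972 in mud and 1.11 in nanobody, with intervals that span 1 in both altered libraries. In nSyb cells of no other gate the median log2 ratio of cas was -0.027, against 0.60 in the whole gate.

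**Figure D3:**
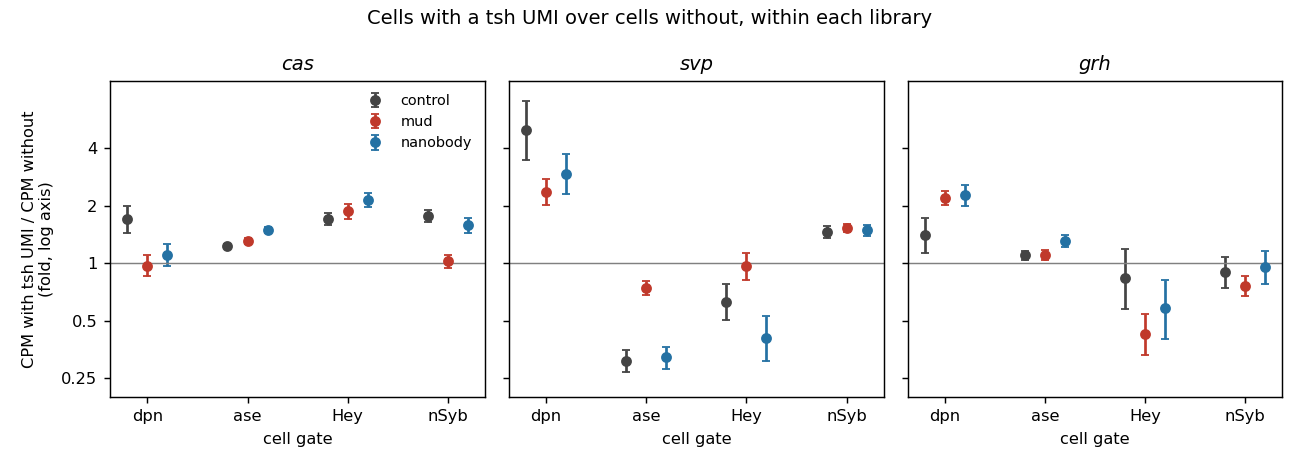
CPM of cells with a tsh UMI over CPM of cells without one (fold, log axis) in each gate and library, with 95% counting intervals; the grey line marks no difference. The svp ratio is above 1 in dpn cells (4.97, 2.37 and 2.93) and below 1 in ase cells (0.310, 0.743 and 0.321).

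Within dpn cells, 2 further splits separated cells by lineage or age, and both were chosen after values had been seen. The first used scro, a homeobox gene of optic lobe timing and of intermediate progenitors. A scro UMI was present in 52.7% of dpn cells in control, 46.3% in mud and 63.5% in nanobody. All 3 factors were higher in dpn cells without scro. There grh was at 253, 321 and 228 CPM, against 43.8, 103 and 46.6 with scro, or 5.77-fold, 3.11-fold and 4.90-fold higher. The level of svp was 43.2, 77.7 and 47.9 CPM against 6.37, 48.3 and 18.0. The level of cas was 318, 183 and 248 CPM against 96.9, 91.2 and 86.4.

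The second split used Imp and Syp, RNA-binding proteins that mark early and late larval neuroblasts. Cells with Syp and no Imp UMI numbered 173, 207 and 262. They held 426, 349 and 297 CPM of cas and 316, 307 and 254 of grh. Cells with both held 93.2, 83.7 and 85.9 CPM of cas and 63.9, 195 and 64.2 of grh. Both factors were higher without an Imp UMI in 3 of 3 libraries, by 3.45-fold to 4.57-fold for cas and by 1.57-fold (mud) to 4.94-fold (control) for grh. The svp ratio was 3.46 in control, 1.33 in mud and 3.24 in nanobody. For grh and svp the level of Imp itself went the other way in mud. It was 486, 2402 and 412 CPM in dpn cells with grh and 1036, 1298 and 967 without. For svp it was 620, 2639 and 512 CPM against 922, 1365 and 889. In the splits by grh and by svp Imp was lower with the factor in control and nanobody and higher in mud. With cas it was lower in 3 of 3 libraries, at 699, 1167 and 620 CPM against 1146, 2331 and 1026 without.

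The gene pnt encodes an Ets factor that marks type II neuroblasts, a type other than that named for the sort. It was detected in 55, 85 and 55 dpn cells. These held 292, 208 and 230 CPM of grh, against 112, 214 and 107 in the other dpn cells. This difference in grh level was present in control and nanobody and not in mud, where the ratio was 0.970 with an interval of 0.857 to 1.09. Read the other way, the level of pnt was higher in dpn cells with grh in every library, by at least 2.7 on the log2 scale.

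Newborn neurons with retn, an ARID factor of mushroom body neurons, had much of the grh of the Hey gate. They numbered 65 in control, 140 in mud and 67 in nanobody. Their grh level was 167, 321 and 233 CPM, against 9.89, 23.8 and 12.2 in Hey cells without retn, which was 16.9-fold, 13.5-fold and 19.2-fold higher. The same cells were low in cas, at 43.2, 36.6 and 17.2 CPM against 299, 210 and 239. The choice of retn was made after values had been seen.

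Among nSyb cells, svp followed transmitter type. Cells with at least 2 UMIs of VGlut, the vesicular glutamate transporter, and no UMI of VAChT or Gad1 held 193, 349 and 193 CPM of svp. Cells with VAChT alone, a marker of acetylcholine release, held 38.7, 88.6 and 32.2, and cells with Gad1 alone, the GABA-producing enzyme, held 51.5, 95.5 and 41.1. The interval of the ratio of VGlut to VAChT cells was 4.54 to 5.50 in control, 3.69 to 4.20 in mud and 5.45 to 6.61 in nanobody. A svp UMI was present in 29.6%, 35.1% and 28.6% of VGlut cells.

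With more nSyb UMIs per cell cas and grh were lower. From cells with 1 nSyb UMI to cells with 10 or more, cas went from 212, 199 and 168 CPM to 36.7, 28.1 and 13.4, and grh from 43.5, 93.1 and 32.4 to 5.38, 6.89 and 2.88. The svp level was 89.3, 119 and 98.2 CPM in the first set and 78.3, 123.2 and 62.3 in the last. Depth rose along the same bins, from a median of 5498 to 5819 UMIs to one of 11289 to 13037, and its part was not tested.

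**Figure D4:**
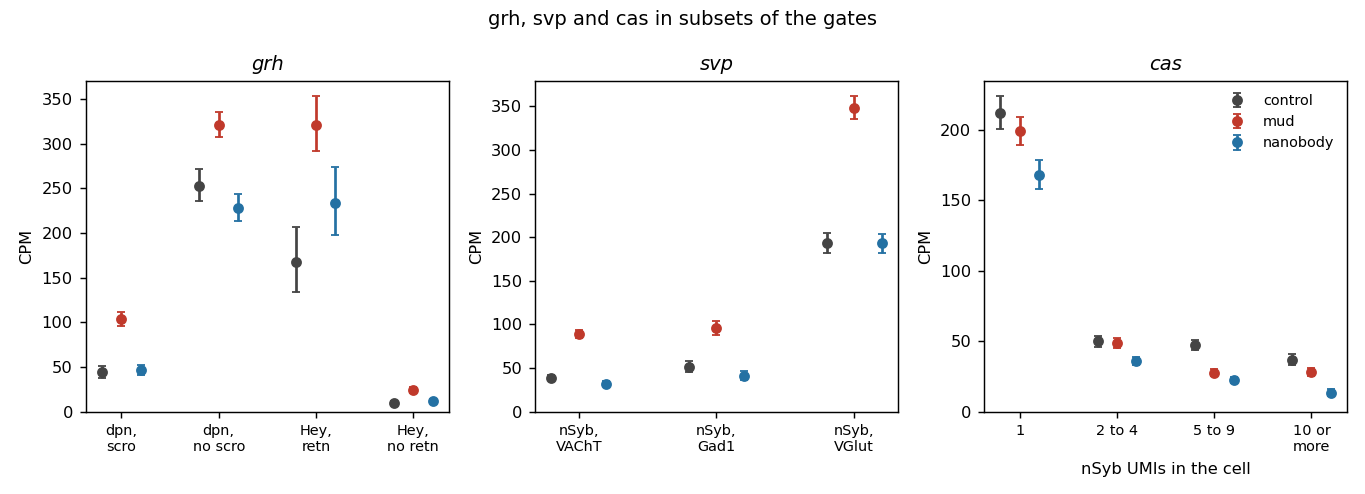
CPM (linear axis) of grh in dpn cells split by scro and in Hey cells split by retn, of svp in nSyb cells by transmitter gene, and of cas by the number of nSyb UMIs in the cell, with 95% Poisson intervals. In every library grh is higher without scro and with retn, svp is highest in VGlut cells (193, 349 and 193 CPM), and cas is highest at 1 nSyb UMI.

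In dpn cells svp and grh shared cells. Cells with both numbered 50 in control, 112 in mud and 69 in nanobody, against 18.8, 55.2 and 23.7 given by the product of their shares within 5 bins of depth. The ratio was 2.67, 2.03 and 2.91. Both factors were also higher in dpn cells without scro than with it. The fold was 6.78, 1.61 and 2.66 for svp and 5.77, 3.11 and 4.90 for grh. The product of shares was not taken within the scro split, so the part of a mixed gate in this ratio was not tested. Of the dpn cells with svp, 84.7%, 71.8% and 69.7% also had grh, whereas 39.4%, 40.0% and 42.3% of those with grh had svp. The ratio of co-detection was above 1 both with tsh (1.58, 1.30 and 1.46) and without tsh (3.03, 2.20 and 3.62). After thinning it was 1.65, 1.93 and 5.89, from 4, 15 and 9 cells.

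The pair cas and grh showed little excess in dpn cells, with ratios of 1.19, 1.02 and 1.14. In nSyb cells it reached 3.46, 2.75 and 3.37, and 74.1%, 51.7% and 51.2% of nSyb cells with grh also had cas. The cas level of nSyb cells is not read as expression. In cells of the nSyb gate alone grh was 0.0158, 0.0292 and 0.0223 of its level in cells of the dpn gate alone. The nSyb excess is therefore not read as joint expression in neurons. Of the ase cells with grh, 90.8%, 84.2% and 84.9% also had cas, with a ratio of 1.13, 1.25 and 1.25. For cas and svp in dpn cells the ratio was 0.820, 0.808 and 0.804, from 25, 58 and 39 cells. Thinned, it was 1.38, 0.675 and 1.36, so no direction is read from it. All 3 transcripts met in 20, 37 and 25 dpn cells, and none of them was found in 173, 322 and 417.

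Genes that differed between cells with and without each factor were taken next. Depth moved with most of these splits. In dpn cells with cas the median was 14515.5, 13408 and 12233 UMIs, against 10130, 7586 and 6996 without. With grh it was 13451, 10558 and 13369 against 11351, 9712 and 8349. With svp it was 12024, 14574.5 and 15056 against 12075.5, 9546 and 8649, so control cells with svp were not deeper. The part of depth was not tested. In dpn cells 0.112% of 4466 genes were called higher with cas and 0.381% lower. The 5 leading genes were sprt, Optix (a homeodomain factor), run (a Runt factor), fd102C (a forkhead factor) and TfAP-2. Optix stood at 214, 175 and 200 CPM with cas and at 77.7, 37.4 and 30.2 without. The lowest were Ald1 (an aldolase), CG14989 and AnxB9 (an annexin).

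The genes that went with svp and with grh in dpn cells overlapped, as the cells did. Called higher with svp were 0.734% of 4495 genes, and with grh 0.982% of 4481. CG10939, fru and CG9993 were among the 5 leading genes of both. The level of fru, which encodes BTB zinc-finger factors, was 288, 448 and 233 CPM with grh and 12.6, 33.9 and 13.8 without. Called lower were 0.623% and 0.87%, and scro was among the 3 lowest for both. With svp it was at 366, 193 and 293 CPM, and without svp at 1270, 1123 and 1701. The other leaders were CG46301 and CG12496 for svp, and CG13305 and pnt for grh, with Obp44a and CG42402 lowest for svp and hdly and CG1124 for grh.

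In the temporal lists, 30 of 68 genes reached 20 CPM in dpn cells for the split by svp, and 3 were called higher and 5 lower. Higher were Antp (a Hox gene), Eip93F (an ecdysone-induced late factor) and Syp. Lower were ham, opa, scro and slp1, which act in intermediate progenitors or optic lobe timing, and mamo, a BTB factor of neuronal fate. For grh, 3 of 29 were called higher (Eip93F, Syp and eya) and 6 lower (D, slp1, slp2, scro, mamo and the death gene grim). Syp itself was at 5010, 6023 and 5504 CPM with grh and at 2125, 1458 and 1959 without. For cas 0 of 28 were called. The median log2 ratio of the listed genes was -0.35 for cas, -0.20 for svp and -0.26 for grh, against -0.0059, -0.031 and -0.038 over all genes tested. The early cascade genes hb, Kr, nub and pdm2 did not reach 20 CPM in dpn, ase or nSyb cells.

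In ase cells grh went with fewer death gene transcripts. The genes rpr, grim and skl, which trigger cell death, were called lower with grh, as were 2.79% of 4227 genes, with 0.757% called higher. Depth differed here too, with a median of 9897, 8000 and 10452 UMIs in ase cells with grh and 7190, 6916 and 7809 without. The part of depth, and of a different mix of ase cells, was not tested. The level of skl was 8.46, 29.9 and 18.7 CPM with grh and 79.7, 83.2 and 109 without. The gene mamo was at 163, 344 and 203 CPM with grh and 1909, 2483 and 2252 without. Of 31 listed genes, 2 were called higher (Eip93F and tll) and 10 lower. For cas in ase cells 0.428% of 4205 genes were called higher and 1.38% lower. The highest was gsb-n, a Pax factor, at 137, 95.4 and 111 CPM with cas and 18.4, 12.1 and 11.6 without, and retn was the lowest. Of 32 listed genes 2 were called higher with cas (Antp and eya) and 7 lower. For svp in ase cells 0.0487% and 0.0244% of 4105 genes were called higher and lower, and the 3 called genes were CG11294, eya and scro. These ase genes were chosen after values were seen.

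In nSyb cells the 4 genes called higher with svp were HLH4C (a bHLH factor), CG46448, eya (a transcription cofactor) and VGlut. CG15646 ranked next and fell short of the call in control (0.99 on the log2 scale). HLH4C was at 54.9, 53.8 and 75.2 CPM with svp and 9.02, 5.44 and 12.5 without. VGlut was at 530, 630 and 604 CPM with svp and 215, 289 and 220 without. Called higher were 0.0879% of 4551 genes and lower 0.352%, led by sals, sim (a bHLH-PAS factor) and Dif. Of 40 listed genes, VGlut and eya were called higher and Hr51 and scro lower.

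More genes were called with cas and grh in nSyb cells. For cas, 2.17% of 4704 genes were called higher, led by Galphai (a G protein subunit of asymmetric division), sprt, insb, ase and pbl. For grh, 4.4% of 4776 genes were called higher, led by Pen (an importin), CG15646, M7BP, CG13305 and Galphai. The level of ase was 121, 146 and 126 CPM in nSyb cells with cas and 9.94, 18.5 and 13.2 without. Among listed genes 1 of 40 was called with cas (slp2) and 4 of 42 with grh (slp2 and tll higher, Nplp1 and VGlut lower), and both counts went to 0 in cells that met the nSyb gate alone. The lowest genes were jdp, Rgk1 and Dop1R2 for cas (0.17% called lower) and Dh31, Fer2 and dpr10 for grh (1.38%).

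Over 24 points (4 gates, split by tsh, in 3 libraries), the genes with the most similar pattern to cas were insb (Pearson r 0.977), Phs, Dpit47, dap (a cyclin-dependent kinase inhibitor) and tap (r 0.929), among 5919 genes. For grh they were M7BP (r 0.970), pit, CG2841, mod and Pen (r 0.960). For svp the likeness was lower, from Hipk (r 0.689) through mab-21, AP-1gamma and Ubr1 to sbb (r 0.651). Points share libraries and partly cells, so r is a description. Between the factors r was 0.522 for cas and grh, -0.329 for cas and svp and -0.087 for svp and grh.

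Between genotypes, cas was lower and svp was higher in the mud library than in control in all 4 gates. For cas in nSyb cells the direction turned with doublets removed, from -0.19 to 0.082 on the log2 scale, and also as the mean of per-cell CPM. Both altered libraries are set against the same control library. The level of cas was 0.700-fold, 0.680-fold, 0.655-fold and 0.869-fold of control in dpn, ase, Hey and nSyb cells of mud. In nanobody it was 0.767-fold, 0.697-fold, 0.785-fold and 0.633-fold. None of these reached the 2-fold call, with a background of calls in mud of 0.19%, 0.294%, 0.174% and 0.166% lower in the same order of gates. For nSyb cells the ratios are of a cas level not read as expression. Low-UMI barcodes were also lower in cas, at 731, 592 and 454 CPM in control, mud and nanobody, and the part of free RNA was not tested. In dpn cells with tsh cas was at 317, 134 and 164 CPM in control, mud and nanobody, and mud was called lower (0.423-fold, 0.350 to 0.513), as were 1.9% of 5004 genes there. The genes insb, dap and tap, of the 5 most similar to cas in pattern, were lower in the same cells of mud. In control, mud and nanobody insb was at 474, 136 and 214 CPM, dap at 626, 146 and 288 and tap at 231, 93.6 and 125. That likeness was taken over points that include these cells, so a fall together with cas was partly fixed by the choice. In the whole dpn gate the GMC markers insb and wor were lower in mud than in control. There ase (218 against 181 CPM), pros (965 against 878) and mira (816 against 698) were higher. The part of these genes in the cas difference was not tested.

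The svp level was 2.74-fold above control in mud dpn cells (2.31 to 3.28), a call made for 1.71% of 4739 genes. Most neuron and nerve cord markers were also higher in dpn cells of mud than of control. The levels were 81.6 against 33.8 CPM for nSyb, 52.1 against 21.8 for brp, 61.2 against 19.5 for Rdl and 37.8 against 2.62 for abd-A. The neuron marker elav was lower in mud, at 609 against 820 CPM. Cells that also met the nSyb gate were 16.4% of mud and 10.7% of control dpn cells. In dpn cells of no other gate svp was at 59.8 CPM in mud and 19.9 in control, with an interval of the ratio of 2.45 to 3.71. In ase, Hey and nSyb cells of mud it was 1.69-fold, 1.48-fold and 1.81-fold, not called (0.995% of genes were in ase and 1.02% in nSyb cells). In ase cells with tsh it was 3.42-fold (2.96 to 3.96), as called for 3.66% of 4485 genes. In nanobody the 4 ratios were 1.30, 1.23, 1.10 and 0.914. No factor was called in nanobody in any gate. The background there was 0.172% higher and 0.0645% lower in dpn, 0.0913% and 0.0228% in ase, 0.223% and 0.0891% in Hey and 0.126% and 0.211% in nSyb cells. As the mean of per-cell CPM, the dpn difference was 0.94 on the log2 scale in mud, under the 2-fold call, against 1.28 from summed UMIs, and in nanobody it turned from 0.32 to -0.18. In dpn cells with none of scro, slp1, slp2, opa and D the mud ratio was 0.951 (0.656 to 1.40), from 64 control and 141 mud cells. In dpn cells with scro it was 7.57 (4.99 to 12.0), and without scro 1.80, a difference of 0.78 on log2(CPM + 5) that is no longer called. The low-UMI barcodes of mud were also higher in svp, at 237 against 99.1 CPM, and the part of free RNA was not tested.

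The grh level was 3.59-fold above control in mud Hey cells (3.04 to 4.24), called as for 2.18% of 4585 genes. Several markers of other cell types were higher in the same gate of mud. The hemocyte genes Hml, Col4a1 and vkg were at 23.9, 16.4 and 8.30 CPM against 0, 3.45 and 0.0932 in control, mira was at 69.3 against 25.7 and nSyb at 101 against 45.4. The neuroblast marker wor and the neuron marker elav were lower in mud, at 105 against 122 and 2216 against 3466 CPM. Hemocytes of mud (37 cells) held 23.6 CPM of grh, below the level of the gate. In Hey cells of no other gate grh was at 35.9 CPM in mud and 5.95 in control. In dpn, ase and nSyb cells of mud grh was 1.54-fold, 0.995-fold and 2.01-fold of control, and none of these was called. The nSyb difference was 0.79 on log2(CPM + 5), from 26.2 against 13.0 CPM. In nanobody grh was 0.862-fold, 0.648-fold and 0.742-fold in dpn, ase and nSyb cells, and between 1.24-fold and 1.82-fold by its interval in Hey cells. In dpn cells with tsh mud was 2.06-fold above control (1.68 to 2.55), a call shared by 5.14% of genes. In the Hey gate, retn cells were 4.04% of control, 10.1% of mud and 4.80% of nanobody cells. Without them grh was still higher in mud, at 23.8 against 9.89 CPM (2.41-fold, 1.90 to 3.08). In dpn cells retn was at 2.33, 52.1 and 3.95 CPM, and without the retn cells grh was 1.42-fold and svp 2.83-fold above control in mud. Free RNA moved the same way, with grh at 215 CPM in low-UMI barcodes of mud and 87.4 in control, and its part was not tested. Within a gate, a different mix of lineages and a different level per cell cannot be told apart.

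**Figure D5:**
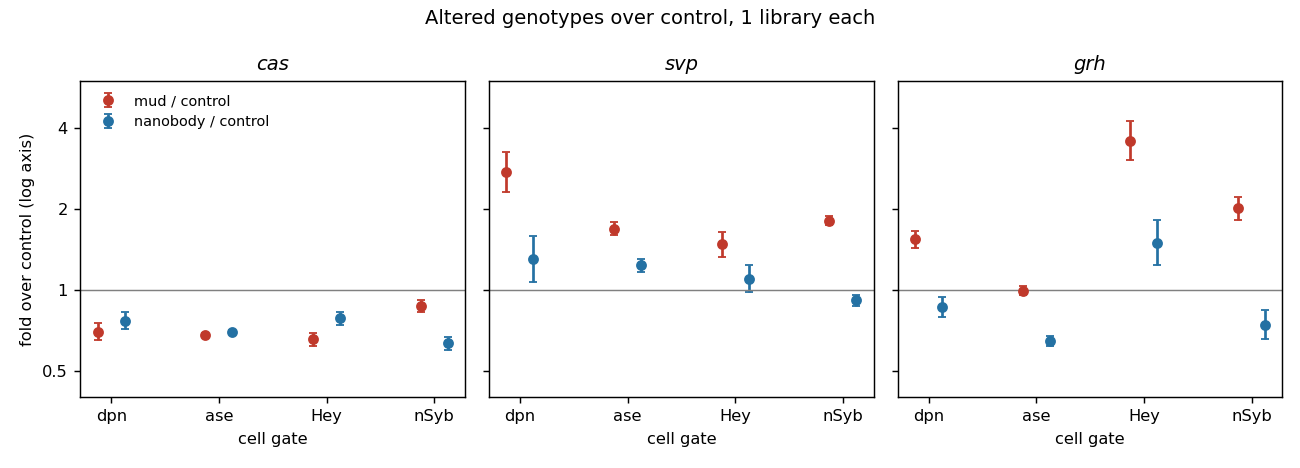
CPM in the mud and nanobody libraries over control (fold, log axis) in each gate, with 95% counting intervals; the grey line marks no difference and each genotype is 1 library. The cas ratios all lie below 1, svp in mud dpn cells is at 2.74 and grh in mud Hey cells is at 3.59.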

How the data were processed

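Values were raw UMI counts per gene and barcode, as deposited by the authors with all barcodes kept. The matrices were written by Cell Ranger 9.0.1, per the file headers. Seurat is named without a version in the submitters' processing notes, and the genome build is not given in the sources used here. Called cells had at least 1000 UMIs, 500 genes and at most 20% mitochondrial UMIs. Total UMIs were 120307337 in control, 125857942 in mud and 127824556 in nanobody. No doublets were removed in the main values. As an alternative, the highest Scrublet scores (scanpy 1.11.5) were removed, 5.939%, 6.075% and 5.765% of cells. A level is the summed UMIs of a gene in a gate, as CPM of the gate's total (Python 3.11.15, numpy 2.4.6, scipy 1.17.1, pandas 2.3.3). Sums carry exact 95% Poisson, folds conditional binomial and shares Clopper-Pearson intervals, which cover counting error only, and the limit for a count of 0 is 3 counts. No tests were made with 1 library per genotype. Log2 ratios used 5 CPM added, with a minimum of 20 CPM. Thinning drew 1000 UMIs per cell without replacement. The scripts were tested on simulated counts.

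The gates and their markers, the members and the gene lists were chosen with earlier results of these data known. In dpn and nSyb cells the named genes are the 5 highest and 3 lowest log2 ratios of member-positive over member-negative cells, ranked by the library nearest 0, and the 5 genes of highest r. The listed gene stit was matched as Cad96Ca. Positions come from the Ensembl annotation of BDGP6.54, to which 13976 of 13988 IDs matched. Alternatives covered cell calling, doublets, gates, scaling, pseudocount, thinning and left-out libraries. The split of dpn cells by scro was added after seeing the data.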

Additional observations from a re-analysis of the deposited data

Results flagged for a closer look

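The tsh split moved svp and grh one way in some gates and the other way in others, in 3 of 3 libraries each. The differences below compare the median log2 ratios of tsh over no tsh cells, and none of them was tested. For svp the dpn gate (1.37) stood 2.86 above the ase gate (-1.49) and 1.97 above the Hey gate (-0.60). The nSyb gate (0.54) stood 2.03 above the ase gate and 1.14 above the Hey gate. For grh the dpn gate (1.11) stood 1.75 above the Hey gate (-0.64) and 1.22 above the nSyb gate (-0.11). The ase gate (0.14) stood 0.78 above the Hey gate and 0.26 above the nSyb gate. Counting intervals spanned 1 for the mud ratio of svp in Hey cells (0.964), the control ratio of grh in Hey cells (0.837) and the control and nanobody ratios of grh in nSyb cells (0.897 and 0.955). The nSyb value of grh turned positive with stricter gates (0.38) and without pnt cells (0.081), and also in cells of one gate only.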

How the results depend on the processing

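No paired analysis was possible because each genotype has 1 library and no result comes from a test. Of the alternative values of the main results, 315 stayed within the spread set for them and 66 moved, and none changed the sign of a called value. Values below are log2 unless named otherwise. The level of grh in nSyb over dpn cells (-2.99) moved to -3.52 with doublets removed, -4.33 with cells in one gate only, -3.50 with stricter gates, -3.42 as mean of per-cell CPM, -3.31 and -2.26 with pseudocounts of 1 and 20, -2.80 with median-of-ratios scaling and -3.84 without scro cells. That of cas (-1.45) moved to -2.11, -2.93, -1.79 and -2.13 with doublets removed, cells in one gate, per-cell CPM and without scro cells, and that of svp (1.11) to 0.77 without scro cells. Mud over control in dpn cells moved for cas (-0.50) to -0.30 in one gate, -0.29 with stricter gates and -0.78 without scro. For svp (1.28) it moved to 0.94 with per-cell CPM, 0.95 with pseudocount 20 and 0.78 without scro. For grh (0.61) it moved to 0.78 with doublets removed, 0.80 with stricter gates, 0.90 without pnt cells and 0.34 without scro. Nanobody over control in dpn cells moved for cas (-0.37) to -0.013 with stricter gates and -0.63 with per-cell CPM. It moved for svp (0.32) to -0.18 with per-cell CPM, and for grh (-0.21) to -0.055, -0.48 and -0.061 with doublets removed, per-cell CPM and without pnt cells. The tsh ratio in nSyb cells moved for cas (0.60) to -0.027 in one gate, for svp (0.54) to 0.60, 0.72, 0.45 and 0.61 in one gate, with stricter gates, pseudocount 20 and at least 2 tsh UMIs, and for grh (-0.11) to 0.38 and 0.081 with stricter gates and without pnt cells. In dpn cells that of cas (0.14) moved to 0.65 with per-cell CPM. In dpn cells the thinned shares (13.0% cas, 3.06% svp and 10.9% grh) were 41.4%, 12.9% and 27.8% without thinning and 19.9%, 6.02% and 20.4% without scro. Co-detection of cas and svp in dpn cells (0.808) moved to 0.767 with doublets removed, 0.758 in one gate, 0.819 with a higher UMI minimum per cell, 0.794 without pnt cells, 0.898 without bins and 1.36 thinned. That of cas and grh (1.14) moved to 1.04 with stricter gates and 1.60 thinned, and that of svp and grh (2.67) to 1.93 thinned. Called listed genes in nSyb cells moved for cas (1) to 0 in one gate, 2 with per-cell CPM and 0 at 50 CPM. They moved for grh (4) to 0, 1, 1 and 2 in one gate, with stricter gates, pseudocount 20 and at 50 CPM, and for svp (4) to 2 with pseudocount 20 and at 50 CPM. Leaving out 1 library gave 1 to 4 listed genes for cas and 4 to 7 for grh in nSyb cells, and 0 to 1 for cas in dpn cells. The cause of these shifts was not tested, other than fewer genes or cells where the setting removes them. With 43 control dpn cells with tsh, the counts limit the precision of that comparison.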
